A study of Mus musculus with 2 samples.

Results

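Expression of 10 genes that encode integrin subunits used for adhesion to the extracellular matrix was measured in single cells from amputated digits of neonatal mice, and *Itga5*, which encodes the alpha subunit of the fibronectin receptor, was the member with the highest FGF8/BSA ratio in fibroblast-like cells. The members were taken by symbol from the 33696 genes of the deposited matrices, and all 10 were found: the collagen receptor subunits *Itga1*, *Itga2* and *Itga11*, the fibronectin receptor subunits *Itga4*, *Itga5* and *Itgav*, the laminin receptor subunit *Itga6*, and the beta subunits *Itgb1*, *Itgb3* and *Itgb5*. Integrins are transmembrane receptors, each made of an alpha and a beta subunit, that bind matrix proteins outside the cell and link them through talin and kindlin to the actin cytoskeleton. *Itgb1* encodes the beta subunit that pairs with most of these alpha subunits, whereas the proteins of *Itgb3* and *Itgb5* pair with that of *Itgav*. In connective tissue, integrins are known for anchoring fibroblasts to collagen and fibronectin and for their part in cell migration and wound closure.

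The hindlimb digits 2 and 4 of ICR mice were amputated through the middle phalanx (P2) at postnatal day 3, and an agarose bead soaked in FGF8 (500 ng/µl) or in 0.1% BSA was implanted at postnatal day 7. The tissue was taken 24 h after that (postnatal day 8) from the region distal to the stump after the epithelium had been removed, and its cells were freed with Liberase. The comparison of FGF8 with BSA asks how cells of an amputation wound that does not regenerate on its own respond to this growth factor. Each condition was 1 library, made from 20 digits pooled from 5 mice of both sexes, so treatment, pool of animals and library cannot be told apart. No test across samples was possible, and every interval given is a 95% interval that covers counting error only.

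The FGF8 library held 7249 cell barcodes with 124889213 UMIs (unique molecular identifiers, each a captured RNA molecule), and the BSA library held 3703 barcodes with 67739460 UMIs. After filtering, 6715 and 3252 cells remained, with medians of 12251 and 15377 UMIs. The libraries shared 6 barcodes. Sex-linked transcripts set the libraries apart: of the cells that could be called, 24.6% were female for FGF8 (23.4 to 25.9%, exact binomial) and 79.3% for BSA (77.6 to 80.9%). For this reason, values are also given within female-called and male-called cells.

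Fibroblast-like cells, the cells of the wound connective tissue, numbered 3324 for FGF8 and 1707 for BSA. They carried 69923923 and 35450731 UMIs. All 8 fibroblast markers on the list were lower in the FGF8 library, with a summed level of 24000 CPM (UMIs per 1000000 UMIs of the cell type) against 44230 CPM, and the most abundant, the collagen gene *Col3a1*, stood at 7091 and 12805 CPM. Of the markers of other cell types, those of red cells had the highest sum in these cells (1432 CPM in FGF8 and 1540 CPM in BSA over 7 genes, most from the globin gene *Hbb-bs* at 777 and 754 CPM). Tenocyte markers summed to 853 and 900.04 CPM over 7 genes, 1 of them higher in FGF8 (*Thbs4*, 451 and 177 CPM). Smooth muscle or pericyte markers summed to 443 and 540 CPM over 8 genes, 1 of them higher in FGF8, and chondrocyte markers to 384 and 553 CPM over 9 genes, none of them higher. Osteoblast markers summed to 223 and 224 CPM over 7 genes, 4 of them higher in FGF8 (most abundant *Bglap* at 91.9 and 107 CPM). Neutrophil markers were higher in FGF8 for 6 of 7 genes (39.6 and 16.4 CPM, most abundant *S100a9* at 17.2 and 7.28 CPM, *Ly6g* at 0), as was the sum of the lymphocyte list (3 of 6 genes, 12.6 and 2.31 CPM, mostly *Trbc2*). The sums of the lymphatic endothelial list (2 of 6 genes higher, 122.8 and 60.1 CPM, mostly *Pdpn* at 119 and 55.3 CPM) and of the monocyte or dendritic list (2 of 6, 37.6 and 19.97 CPM, mostly *Plac8*, with *Cd209a* at 0) were higher too. Keratinocyte markers were higher in FGF8 for 6 of 8 genes (63.2 and 54.6 CPM), and endothelial markers for 5 of 7 (17.9 and 13.8 CPM). Macrophage (16.4 and 15.6 CPM) and Schwann cell markers (15.6 and 18.8 CPM) were low in both. The part of these markers in the ratios below was not tested.

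Sequence upstream of the start site is shown for the members at the ends of the range of ratios in fibroblast-like cells. RefSeq promoters on GRCm38.p6 matched 8 of the 10 members, without *Itga6* and *Itgb3*. The 250 bases before the start are given 5′ to 3′ on the gene's strand, with GC boxes (GGGCGG or its reverse complement, overlaps merged) in capitals. The *Itga5* window is chr15:103366792-103367041 on the minus strand and that of *Itga4* is chr2:79255176-79255425 on the plus strand.
*Itga5*: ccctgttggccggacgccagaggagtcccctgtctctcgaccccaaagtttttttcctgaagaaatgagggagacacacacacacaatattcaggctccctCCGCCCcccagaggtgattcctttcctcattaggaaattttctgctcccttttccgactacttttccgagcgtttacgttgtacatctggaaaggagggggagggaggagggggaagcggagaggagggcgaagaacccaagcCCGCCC
*Itga4*: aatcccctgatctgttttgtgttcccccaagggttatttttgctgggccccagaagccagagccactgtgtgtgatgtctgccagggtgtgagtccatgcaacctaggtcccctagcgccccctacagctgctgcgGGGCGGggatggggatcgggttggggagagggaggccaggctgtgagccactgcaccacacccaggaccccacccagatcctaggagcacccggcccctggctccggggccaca
The *Itga5* window held 2 GC boxes and that of *Itga4* held 1. A GC box was found in 4 of the 8 member windows and in 32.9% of 27025 promoter windows of the same length. An AP-1 motif (TGANTCA, 6.87% of windows), a TATA box (TATAAA, 12.97%) or a CArG box (1.40%), searched on both strands, was found in 0 of the 8.

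*Itgb1* was the most abundant member in fibroblast-like cells, with 36144 UMIs in FGF8 and 17103 in BSA, or 517 and 482 CPM. Because 3′ UMIs are counted per molecule and not scaled for transcript length, levels of different genes are compared as UMI shares and not per length. *Itga5* (116 and 62.4 CPM), *Itgav* (104 and 88.9 CPM) and *Itgb5* (93.6 and 114 CPM) followed. *Itga6* stood at 45.5 and 33.9 CPM, and *Itga1*, *Itga11*, *Itgb3* and *Itga4* lay between 11.03 and 34.8 CPM in either library. *Itga2* was the least abundant, at 5.95 and 4.46 CPM. *Itga5* was the second most abundant member in the FGF8 library, and *Itgb5* held that place in BSA.

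**Figure D1:**
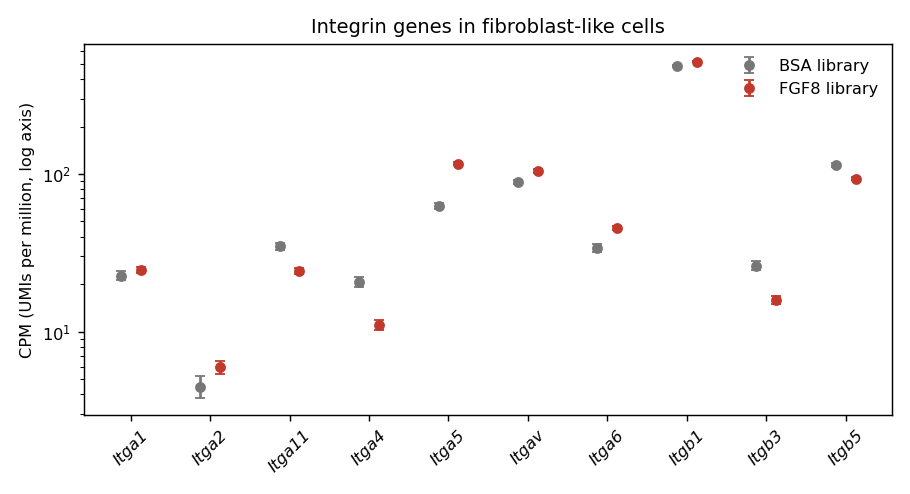
Level of the 10 integrin genes in fibroblast-like cells. Points are CPM (log axis) in the BSA library (gray) and the FGF8 library (red), and bars are exact Poisson 95% intervals (counting error only). *Itga5* was at 116 CPM in FGF8 and 62.4 CPM in BSA, and *Itga4* at 11.03 and 20.5 CPM.

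Among the fibronectin receptor subunits, *Itga5* had 8117 UMIs in FGF8 and 2213 in BSA. This was a log2 ratio of 0.89 (0.83 to 0.96), or 1.86-fold. *Itga4*, which encodes the alpha subunit of a receptor for fibronectin and VCAM1, had 771 and 728 UMIs, 11.03 and 20.5 CPM, and a log2 ratio of -0.90 (-1.05 to -0.75). These 2 genes thus lay at opposite ends of the members. *Itgav*, whose protein binds fibronectin, vitronectin and osteopontin, had 7301 and 3152 UMIs and a log2 ratio of 0.23 (0.17 to 0.29).

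Of the collagen receptor subunits, *Itga11*, a gene of fibroblasts, had 1695 UMIs in FGF8 and 1232 in BSA, at 24.2 and 34.8 CPM, with a log2 ratio of -0.52 (-0.63 to -0.41). *Itga1* had 1726 and 804 UMIs, at 24.7 and 22.7 CPM and a log2 ratio of 0.12 (0.00 to 0.24). *Itga2* had 416 and 158 UMIs and a log2 ratio of 0.42 (0.15 to 0.69). *Itga6*, the laminin receptor subunit, had 3184 and 1201 UMIs and a log2 ratio of 0.43 (0.33 to 0.52).

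Of the beta subunits, *Itgb1* differed little between the libraries, with a log2 ratio of 0.10 (0.07 to 0.13). *Itgb3*, known as the beta subunit of a vitronectin and osteopontin receptor, had 1117 UMIs in FGF8 and 930 in BSA, at 15.97 and 26.2 CPM, with a log2 ratio of -0.72 (-0.84 to -0.59). *Itgb5*, which encodes a further partner of the *Itgav* subunit, had 6546 and 4038 UMIs and a log2 ratio of -0.28 (-0.34 to -0.23). *Itgb3* and *Itgb5* were thus lower in the FGF8 library, while *Itgav* itself was higher. Of further beta subunits that pair with it, *Itgb6* was at 3.99 and 1.97 CPM (1.01, 0.63 to 1.41) and *Itgb8* at 5.55 and 5.75 CPM (-0.05, -0.30 to 0.20).

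With a threshold of 1.5-fold, 1 of the 10 members was higher in FGF8 (*Itga5*) and 2 were lower (*Itga4* and *Itgb3*). Of 14225 genes that had 100 UMIs or more when the libraries were added, 8.94% were higher and 11.3% lower by that fold. At 2-fold, 0 of the 10 members passed in either direction, beside 3.33% of genes higher and 2.21% lower. The median log2 ratio of the members was 0.11, and that of all genes tested was -0.07. Within the sex calls the members' median was below 0 (-0.17 for female-called cells, -0.0232 for male-called ones). The members' counts were near these shares. The calls of *Itga4* and *Itgb3* depended on how cells were weighted: with equal weight of every cell in place of summed UMIs, neither passed 1.5-fold.

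The ratio of *Itga5* was close to the same within each sex. In female-called fibroblast-like cells it was at 113 CPM in FGF8 and 62.6 CPM in BSA, with a log2 ratio of 0.86 (0.76 to 0.96), and in male-called cells at 116 and 63.4 CPM, with 0.87 (0.73 to 1.02). *Itga4* was lower in FGF8 in both, by a log2 ratio of -0.75 (-1.01 to -0.50) in female-called and -1.32 (-1.56 to -1.06) in male-called cells. *Itgb3* was also lower in both (-0.75 and -0.56), and *Itga6* was higher in both (0.58 and 0.86). *Itga1* was close to even or lower within the sex calls (-0.02, -0.22 to 0.19, in female-called and -0.16, -0.38 to 0.07, in male-called cells), against 0.12 over all cells. *Itga2* was not stable across the sex calls. It was at 3.23 CPM in FGF8 and 4.54 CPM in BSA in female-called cells (47 and 114 UMIs, log2 ratio -0.49, -1.01 to 0.01) and at 7.08 and 4.10 CPM in male-called cells (338 and 28 UMIs, 0.79, 0.23 to 1.40). For *Itga11* the log2 ratio was -0.77 in female-called cells and -0.17 (-0.39 to 0.06) in male-called cells.

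The share of cells with a UMI was compared after each cell had been thinned to 2000 UMIs, which left out 151 FGF8 and 85 BSA fibroblast-like cells with fewer. *Itga5* was then found in 16.9% of 3173 FGF8 cells (15.6 to 18.2%, exact binomial) and in 10.2% of 1622 BSA cells (8.74 to 11.7%). Without thinning the shares were 64.1% and 56.4%. No cell type was set as lacking *Itga5*, but in erythroid-like cells its thinned share was 1.67% of 478 FGF8 cells (0.725 to 3.27%) and 1.30% of 77 BSA cells (0.0329 to 7.02%). *Itgb1* was found in 60.8% and 59.8% of thinned cells, *Itgav* in 19.3% and 16.4%, *Itgb5* in 18.5% and 20.3%, and *Itga6* in 7.85% and 5.24%. *Itgb3* was found in 3.94% and 6.04%, *Itga4* in 2.90% and 4.19%, *Itga11* in 4.76% and 5.86%, and *Itga1* in 4.98% and 4.19%. The thinned shares ordered the libraries as the CPM did, but the intervals of the libraries stood apart for *Itga5*, *Itga6* and *Itgb3* alone among the members.

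Free RNA gives a low share in cells that do not express a gene, and erythroid-like cells, the red cell lineage, served as that background for the members other than *Itga4*, *Itga5* and *Itgb1*. Of 478 thinned erythroid-like FGF8 cells, 0.418% had a UMI of each of *Itga1*, *Itga2*, *Itga11* and *Itgb3*, and 1.26% had one of each of *Itgav*, *Itga6* and *Itgb5*. In the BSA library 77 such cells remained. Median UMIs before thinning were 6970.5 and 18691 in erythroid-like and 18612 and 20135 in fibroblast-like cells. The share with an *Itga2* UMI in fibroblast-like cells, 0.945% and 0.740%, lay within the counting interval of that background (0.0507 to 1.503% in FGF8, from 2 cells). Unthinned, its level was 5.95 CPM (5.39 to 6.55) in fibroblast-like and 0.868 CPM (0.237 to 2.22) in erythroid-like FGF8 cells, with intervals that did not overlap, and 4.46 (3.79 to 5.21) and 2.06 CPM (0.426 to 6.03) for BSA, where they did. For *Itga4*, keratinocyte-like cells gave 1 of 211 FGF8 cells and 0 of 123 BSA cells. A floor of 3 cells would be 2.44% of those BSA cells, which is not an exact binomial limit.

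UMIs of the members were spread unevenly over cells. The 10% of FGF8 fibroblast-like cells with the most UMIs of a gene held 32.2% of the *Itgb1* UMIs and 47.4% of the *Itga5* UMIs, and 28.9% and 45.9% in the BSA library. For *Itga4*, found in 12.1% and 18.3% of unthinned cells, they held 90.9% and 80.4%. These are raw UMIs without correction for the depth of a cell, and a gene found in few cells gives a high share by that alone.

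The whole cluster from which the fibroblast-like class was taken, 3467 FGF8 and 1773 BSA cells with the chondrocyte-like cells included, was divided into subclusters without any integrin gene among the features. Each is called by its leading genes, and the shares given are of that whole cluster, in which a chondrocyte-like subcluster held 3.95% and 3.05%. The subcluster led by *Prg4*, the lubricin gene of joint surfaces, *Scx*, a tendon transcription factor, and genes of the cell cycle held 42.5% of cells in FGF8 and 32.7% in BSA. The subcluster led by *Tnfrsf19* and *Sema3a* held 27.2% and 37.1%, and that led by *Lpl* and *Dlk1* held 11.8% and 13.3%. A subcluster of few UMIs (medians 2527 and 2485) led by *Lars2* held 13.1% and 12.6%. At the finer resolution a cluster with the tendon genes *Fmod* and *Comp* among its leading genes lay inside the fibroblast-like class, and its values are therefore given apart below. Against all other cells, the mean log2 fold of the osteoblast markers in that cluster was 3.36, above the 2.41 of the tenocyte markers, so its leading genes do not settle its identity.

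In the *Prg4* and *Scx*-led subcluster, *Itga5* was at 138 CPM in FGF8 and 73.2 CPM in BSA, a log2 ratio of 0.92 (0.83 to 1.01). *Itga6* was at 49.5 and 24.7 CPM (1.00, 0.85 to 1.16). *Itga11* was at 23.0 and 46.0 CPM (-0.999, -1.14 to -0.86), and *Itga4* at 2.29 and 6.28 CPM (-1.46, -1.87 to -1.05). In this subcluster 2 of the 10 members were thus higher past 1.5-fold, beside 9.26% of genes, and 2 were lower, beside 13.6%. In the largest subcluster at the coarser resolution of 0.1, the ratio was 0.50 for *Itga5* and -0.10 for *Itga6*. That subcluster was picked by size alone and need not hold the *Prg4* and *Scx*-led cells, so it does not decide whether these calls hold.

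In the *Lars2*-led subcluster of few UMIs, *Itga5* was at 191 and 69.0 CPM (1.47, 1.10 to 1.85) and *Itga6* at 74.5 and 48.2 CPM (0.63, 0.16 to 1.11). *Itga1* was at 59.9 and 33.1 CPM (0.86, 0.30 to 1.44) and *Itgb3* at 35.6 and 56.7 CPM (-0.67, -1.19 to -0.16). In the finer *Lars2*-led cluster of few UMIs, *Itga6* had the opposite sign (82.9 and 100.3 CPM, -0.27, -0.72 to 0.18), as did *Itga1* (-0.15, -0.63 to 0.34). In the *Tnfrsf19* and *Sema3a*-led subcluster, where *Itga4* was most abundant among them (43.4 CPM in FGF8 and 48.3 CPM in BSA), 0 of the members with enough UMIs passed 1.5-fold, beside 3.72% of genes higher and 1.52% lower. *Itga5* was at 51.2 and 46.5 CPM there (0.14, -0.02 to 0.30), and *Itga1* at 30.9 and 21.4 CPM (0.53, 0.30 to 0.75). In the *Lpl* and *Dlk1*-led subcluster *Itga5* was at 87.8 and 66.5 CPM (0.40, 0.22 to 0.58), while *Itga6* was lower, at 61.0 CPM in FGF8 and 98.1 CPM in BSA (-0.68, -0.86 to -0.51). Among the members with enough UMIs, *Itga6* alone passed 1.5-fold in that subcluster, beside 5.19% of genes higher and 3.53% lower. In the finer cluster led by *Lpl*, *Pi16* and *Dlk1* it was at 62.3 and 84.1 CPM (-0.43, -0.62 to -0.24) and did not pass. *Itgb3* was lower in each of the subclusters led by *Prg4* and *Scx*, *Tnfrsf19* and *Sema3a*, and *Lpl* and *Dlk1* (-0.32, -0.41 and -0.55), and *Itgav* was higher in each (0.20, 0.26 and 0.25).

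**Figure D2:**
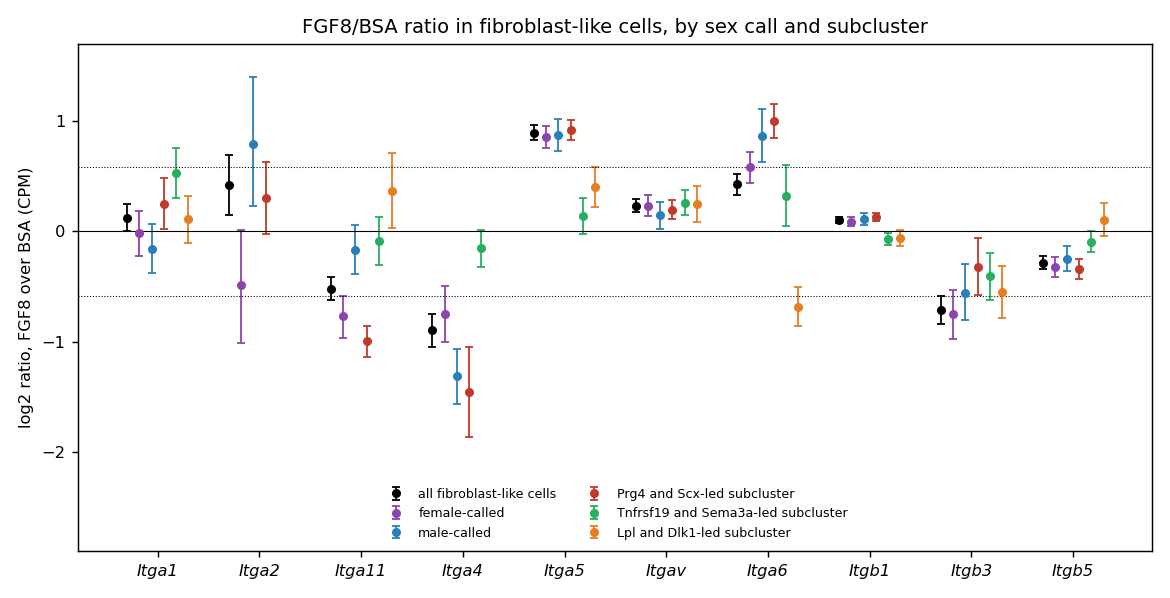
FGF8/BSA log2 ratio of the 10 integrin genes in all fibroblast-like cells (black), in female-called and male-called cells and in 3 subclusters. Bars are exact 95% intervals (counting error only), dotted lines mark 1.5-fold, and a group with fewer than 100 UMIs is not drawn. *Itga5* was above the upper line in all cells, in both sexes and in the *Prg4* and *Scx*-led subcluster, and *Itga6* lay on opposite sides of 0 in that subcluster (1.00) and the *Lpl* and *Dlk1*-led one (-0.68).

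At the finer resolution, the *Prg4*-led cluster made up 34.3% of the class in FGF8 and 16.2% in BSA, and *Itga5* was at 150 and 84.4 CPM in it (0.83, 0.72 to 0.94). In the *Fmod* and *Comp*-led cluster it was at 72.4 and 58.6 CPM (0.30, 0.13 to 0.48), and in the *Chodl* and *Sema3a*-led cluster at 49.7 and 46.2 CPM (0.11, -0.09 to 0.30). The ratio was larger in the *Prg4*-led cluster than in these 2, with intervals that did not overlap, but it was larger still in the low-UMI *Lars2*-led cluster, at 232 and 78.7 CPM (1.56, 1.13 to 2.01). The *Prg4*-led cluster also held a larger share of cells in FGF8 than in BSA and had a higher level of *Itga5* than the *Fmod*- and *Chodl*-led clusters in either library, so the ratio over all fibroblast-like cells holds both a difference within clusters and a difference in their shares. Genes that the study chose on these libraries were left out of the features for the subclusters but not for the finer clusters. The finer clusters' shares are thus not independent of that choice. With equal weight of the 4 subclusters that held at least 50 fibroblast-like cells in each library, chondrocyte-like cells left out, the log2 ratio of *Itga5* was 0.74, while that of *Itga11* moved from -0.52 to -0.09. That of *Itga4* moved from -0.90 to -0.21 and that of *Itgb3* from -0.72 to -0.50, and neither passed 1.5-fold any longer. The 4 subclusters include the *Lars2*-led one of few UMIs, where the *Itga5* ratio was the highest (1.47), and the *Prg4* and *Scx*-led one (0.92). In the *Lpl* and *Dlk1*-led (0.40) and the *Tnfrsf19* and *Sema3a*-led one (0.14) *Itga5* did not pass 1.5-fold.

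Across 9 cell types with at least 50 cells in each library, *Itgb1* was the most abundant member in both libraries in 7. It was highest in smooth muscle or pericyte-like cells, the contractile cells of vessels (1100 CPM in FGF8 and 1162 CPM in BSA), followed by Schwann-like (676 and 703 CPM) and endothelial-like cells (600 and 553 CPM), and lowest in erythroid-like cells (49.7 and 59.9 CPM). In chondrocyte-like cells, the cartilage lineage, *Itgav* exceeded it in the FGF8 library (227 against 209 CPM), and in neutrophil-like cells *Itga4* exceeded it in the BSA library (230 against 209 CPM). *Itgb1* was above the summed level of the 7 alpha genes in both libraries in 3 of the 9 types, among them fibroblast-like cells (517 against 332 CPM in FGF8, and 482 against 268 CPM in BSA).

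The alpha genes had distinct distributions. *Itga1* was highest in smooth muscle or pericyte-like cells (496 CPM in FGF8 and 570 CPM in BSA) and next in Schwann-like cells (344 and 207 CPM). *Itga6* was highest in Schwann-like (466 and 464 CPM) and endothelial-like cells (389 and 278 CPM), both of which lie on a laminin-rich basement membrane. *Itga2* was highest in Schwann-like cells (134 and 141 CPM). *Itga11* was at 24.2 and 34.8 CPM in fibroblast-like cells and at no more than 13.3 CPM in the other 8 types in either library. *Itga4* was highest in neutrophil-like (167 and 230 CPM) and Schwann-like cells (132 and 156 CPM), with macrophage-like cells at 72.1 and 106 CPM. *Itgav* was highest in Schwann-like (300 and 238 CPM) and chondrocyte-like cells (227 and 182 CPM).

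**Figure D3:**
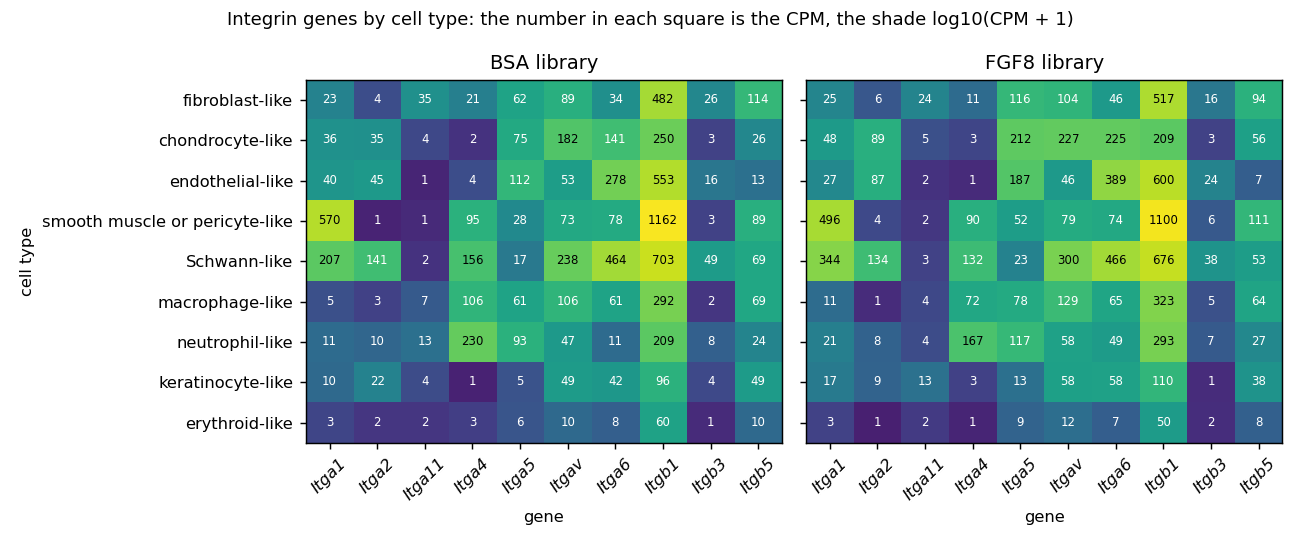
Level of each integrin gene by cell type in the BSA library (left) and the FGF8 library (right). The number in each square is the CPM and the shade is log10(CPM + 1). *Itgb1* in smooth muscle or pericyte-like cells was the highest value in either library (1162 and 1100 CPM), and the row of erythroid-like cells was low throughout.

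*Itga5* was higher in the FGF8 library in all 7 cell types with at least 100 of its UMIs, and the interval lay above 0 in 5. In chondrocyte-like cells it had 684 UMIs in FGF8 and 123 in BSA, at 212 and 75.2 CPM, a log2 ratio of 1.49 (1.21 to 1.78). Endothelial-like cells had 187 and 112 CPM (0.74, 0.49 to 0.99), and smooth muscle or pericyte-like cells had 52.2 and 28.5 CPM (0.87, 0.49 to 1.26). Macrophage-like cells had 77.7 and 61.5 CPM (0.34, 0.14 to 0.54), neutrophil-like cells 117 and 93.3 CPM (0.33, -0.10 to 0.78) and Schwann-like cells 22.9 and 16.9 CPM (0.43, -0.16 to 1.05). This did not hold within every sex call: in male-called neutrophil-like cells *Itga5* was at 117 CPM in FGF8 and 190 CPM in BSA (93 and 17 UMIs, -0.70, -1.46 to 0.14). In smooth muscle or pericyte-like cells the ratio was 0.54 (-0.09 to 1.15) in female-called and 1.51 (0.67 to 2.46) in male-called cells. The ratio in endothelial-like cells was 1.10 (0.74 to 1.46) in female-called and 0.16 (-0.30 to 0.66) in male-called cells, with 83 and 14 BSA cells, and in macrophage-like cells it was 0.26 (-0.08 to 0.59) and 0.04 (-0.37 to 0.47). In chondrocyte-like cells it was 1.77 (1.42 to 2.14) and 1.07 (0.51 to 1.68), with 41 and 14 BSA cells.

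**Figure D4:**
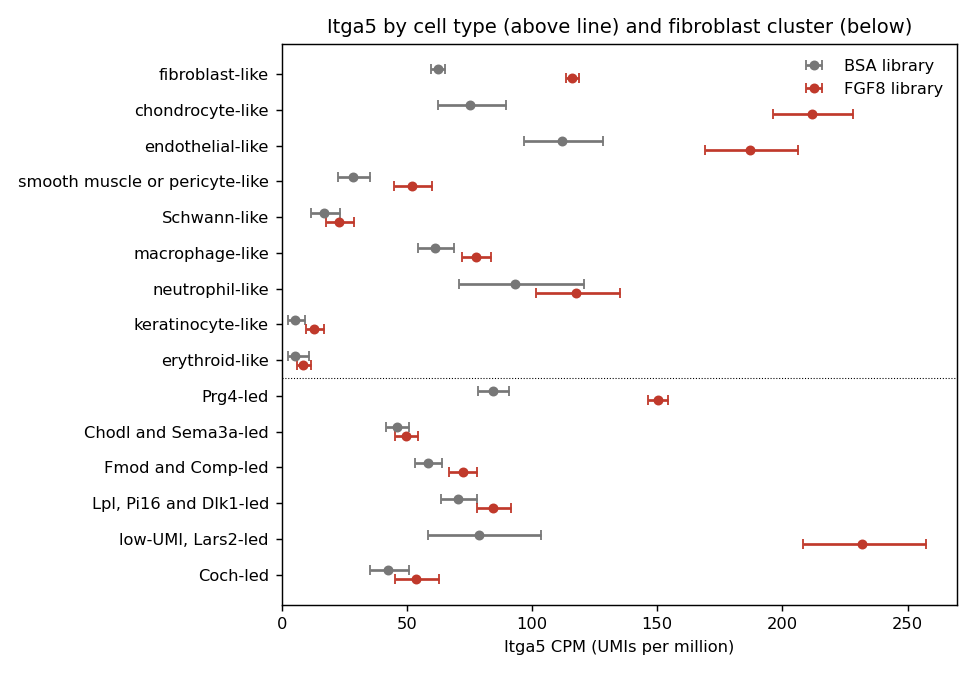
*Itga5* CPM in the BSA library (gray) and the FGF8 library (red), in 9 cell types (above the dotted line) and in clusters of the fibroblast-like class named by their leading genes (below it). Bars are exact Poisson 95% intervals (counting error only). The FGF8 value was higher in every line drawn, with the widest gaps in the *Lars2*-led low-UMI cluster (232 and 78.7 CPM) and in chondrocyte-like cells (212 and 75.2 CPM).

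By pooled UMIs, chondrocyte-like cells had the most members past 1.5-fold. Of 7 members with at least 100 UMIs in the 143 FGF8 and 66 BSA cells, 4 were higher in FGF8, beside 10.2% of the 5649 genes tested. Besides *Itga5* these were *Itga2* (89.2 and 34.9 CPM, log2 ratio 1.35, 0.94 to 1.79), *Itgb5* (56.3 and 26.3 CPM, 1.10, 0.61 to 1.61) and *Itga6* (225 and 141 CPM, 0.67, 0.46 to 0.89). For these 4 genes, shares of cells differed less after thinning to 2000 UMIs. An *Itga5* UMI was found in 26.6% of 139 FGF8 cells (19.5 to 34.8%) and 22.03% of 59 BSA cells (12.3 to 34.7%). The intervals also overlapped for *Itga6* (33.8% and 28.8%), *Itgb5* (9.35% and 6.78%) and *Itga2* (7.91% and 3.39%). Unthinned, they overlapped for *Itga5* and *Itga2* but stood apart for *Itga6* (86.7%, 80.0 to 91.8%, and 68.2%, 55.6 to 79.1%) and *Itgb5* (62.2%, 53.8 to 70.2%, and 37.9%, 26.2 to 50.7%). Thinned shares of *Itgav*, which did not pass 1.5-fold, were 35.3% and 16.9%. The *Itga2* UMIs came from 35 of the 143 FGF8 and 7 of the 66 BSA cells. *Itgb1* was at 209 and 250 CPM (-0.26, -0.44 to -0.08) in the same cells. In endothelial-like cells 2 of 6 members passed, *Itga5* and *Itga2* (87.2 and 44.7 CPM, 0.96, 0.58 to 1.36), beside 9.27% of genes. In smooth muscle or pericyte-like cells 1 of 7 passed (*Itga5*), beside 3.39%. In Schwann-like cells 1 of 9 passed (*Itga1*, 344 and 207 CPM, 0.73, 0.57 to 0.89), beside 2.52%, and in macrophage-like cells 1 of 7 (*Itga1*, 11.5 and 4.69 CPM, 1.29, 0.61 to 2.03), beside 9.33%. The macrophage-like call was lost at the coarser resolution of 0.05, where *Itga1* was at 13.4 and 11.3 CPM. In neutrophil-like cells 0 of 4 passed, beside 14.5%.

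*Itga4* was lower in FGF8 in all 5 types with enough UMIs. Besides fibroblast-like cells, its log2 ratio was -0.56 (-0.74 to -0.39) in macrophage-like, -0.46 (-0.75 to -0.16) in neutrophil-like, -0.24 (-0.45 to -0.03) in Schwann-like and -0.08 (-0.31 to 0.16) in smooth muscle or pericyte-like cells. In these 5 types *Itga5* had a ratio above 0 and *Itga4* a ratio below 0, although some of the intervals reached 0.

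The genes whose level across clusters was most like that of each member were taken by Pearson's r of log2(CPM + 10) over 32 points, the 2 libraries of 16 fine clusters, among 10738 genes. The points of a library share its pool and depth. For *Itgb1* the closest were *Rsu1* (r = 0.95) and *Ilk* (r = 0.95), which encode partners of a complex at the cytoplasmic tail of beta integrins. For *Itga5* they were *Ubtd1* (0.88), *Mcu*, the mitochondrial calcium channel (0.87), and *Sec14l1* (0.84). For *Itga11* they were *Tnn*, a matrix tenascin (0.91), *Tbx4*, a hindlimb transcription factor (0.91), and *Ssc5d* (0.91). For *Itga6* they were *Sorbs2* (0.88), *Prag1* (0.87) and *Nid2*, a basement membrane nidogen (0.87), and *Sorbs2* was also the closest to *Itga2* (0.84). For *Itgb5* they included *Axl*, a receptor tyrosine kinase, and *Lrp1*, an endocytic receptor (0.91 and 0.90).

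The partners of integrins inside the cell were described by a list of 26 genes, 24 of them with 100 UMIs or more in this class. Of these, 15 were higher and 9 lower in FGF8, with a median log2 ratio of 0.11, and 2 were higher and 1 lower past 1.5-fold, beside 8.94% and 11.3% of all genes. *Parvb*, which encodes the adaptor beta-parvin, was at 14.9 CPM in FGF8 and 3.67 CPM in BSA (1039 and 130 UMIs, log2 ratio 2.02, 1.75 to 2.29), a gene that the study also chose on these libraries. *Fermt3*, the kindlin of blood cells, had 86 and 26 UMIs (0.75), *Zyx*, the focal adhesion protein zyxin, was at 75.5 and 50.7 CPM (0.57, 0.50 to 0.65), and *Actn1*, an actin crosslinker, at 151 and 108 CPM (0.48, 0.43 to 0.53). At the other end, *Tns1*, tensin, was at 60.1 and 103 CPM (-0.77, -0.84 to -0.71), *Tns2* had a log2 ratio of -0.27, *Tgfb1i1*, a paxillin relative, of -0.22 and *Rsu1* of -0.14. *Ilk* and *Parva*, the core of the complex that *Rsu1* joins, were at 91.2 and 88.3 CPM and at 144 and 143 CPM, and differed little between the libraries.

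Of 31 ligand genes 29 had enough UMIs, and 23 were lower in the FGF8 library against 6 higher, with a median of -0.23. That median was -0.0302 with equal weight of cells and -0.12 with a stricter cell filter (more than 500 and fewer than 6000 genes, and under 10% mitochondrial UMIs). Past 1.5-fold, 8 were lower, beside 11.3% of all genes, and 2 higher, beside 8.94%, and 43.0% of all genes tested had a ratio above 0. The fibrillar collagen genes were the most abundant: *Col1a1* was at 6227 CPM in FGF8 and 13313 CPM in BSA (-1.10, -1.10 to -1.09), *Col1a2* at 6599 and 12127 CPM (-0.88) and *Col3a1* at 7091 and 12805 CPM (-0.85). *Lama2*, a laminin chain, was at 127 and 235 CPM (-0.89, -0.93 to -0.84). *Fn1*, the fibronectin ligand of the *Itga5* receptor, was at 811 and 938 CPM (-0.21, -0.23 to -0.19). *Spp1*, osteopontin, was at 2659 and 510 CPM (2.38, 2.36 to 2.40) and is likewise a gene the study chose on these libraries. *Lamb3*, a laminin chain of epithelia, had 100 and 36 UMIs (0.49, -0.07 to 1.09), and *Tnc*, tenascin C of wounds, was at 533 and 429 CPM (0.32, 0.29 to 0.34).

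Of 16 other integrin subunits 10 had enough UMIs, with 3 higher, 7 lower and a median of -0.16, and 2 passed 1.5-fold in each direction, beside 8.94% of all genes higher and 11.3% lower. The median was 0.13 with a minimum of 10 UMIs. *Itgb6*, known from epithelia, was at 3.99 and 1.97 CPM (279 and 70 UMIs, 1.01, 0.63 to 1.41). *Itgam* (0.69, 92 and 29 UMIs) and *Itgb7* (0.47, 128 and 47 UMIs), which are leukocyte integrins, also had higher values in FGF8. So did most of the neutrophil and keratinocyte markers described above. *Itga8*, which encodes a receptor subunit for nephronectin, was at 14.97 and 34.3 CPM (-1.19, -1.32 to -1.07). *Itga10*, a collagen receptor subunit of cartilage (91 and 76 UMIs, -0.72), *Itga2b* (9.54 and 13.9 CPM, -0.54), known from platelets, and *Itga9* (14.6 and 20.7 CPM, -0.51), a tenascin receptor subunit, were lower, while *Itgb4* (1.66 and 1.69 CPM), of hemidesmosomes, had a log2 ratio of -0.03.

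**Figure D5:**
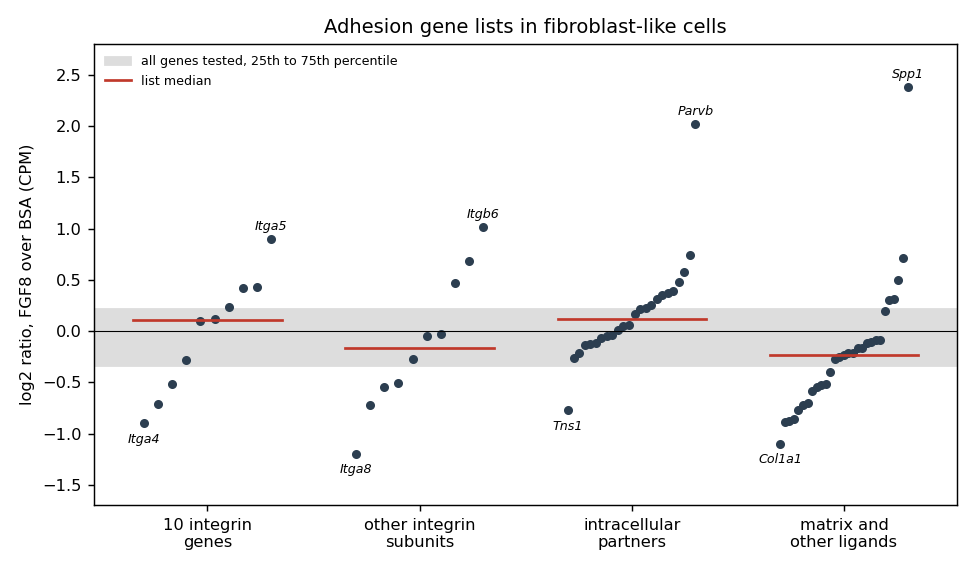
FGF8/BSA log2 ratios in fibroblast-like cells of the 10 integrin genes, 10 other integrin subunits, 24 intracellular partners and 29 ligands with at least 100 UMIs. Each point is a gene in rank order, red lines are list medians (0.11, -0.16, 0.11 and -0.23), and the gray band runs from the 25th to the 75th percentile of all 14225 genes tested (-0.34 to 0.22). The highest and lowest gene of each list is named.

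All 10 genes are protein coding in GENCODE vM39 on GRCm39, the build of the counts. *Itga5* lies at chr15:103252713-103275270 on the minus strand, *Itga4* at chr2:79085660-79163467 on the plus strand and *Itgb1* at chr8:129411876-129460618 on the plus strand. *Itga6* lies at chr2:71575960-71689757 (plus), *Itgb3* at chr11:104498826-104561302 (plus) and *Itga11* at chr9:62585108-62691617 (plus). Same-strand genes overlap *Itga1* (*Pelo*) and *Itga6* (*Gm13663* and *Gm13662*), and reads shared between them could be assigned to either.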

How the data were processed

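The data are single-cell RNA sequencing counts of an FGF8 and a BSA library, 2 in all. The authors deposited raw UMI counts per gene and barcode made with Cell Ranger 9.0.0, on GRCm39 per the files; the submitters' processing notes also name mm10. Cells with more than 200 and fewer than 7500 genes and under 15% mitochondrial UMIs were kept. No doublet caller was run, so the upper limit on genes was the only guard. Cells were clustered with Seurat 5.3.0 and sctransform 0.4.2 (SCTransform, CCA integration, 30 principal components, resolution 0.05 and, finer, 0.5) without integrin genes among the features (2989 of 3000 kept). The fibroblast cluster, chondrocyte-like cells included, was re-clustered at 0.2 on 2664 features. Clusters were named from marker lists. The naming rules were set after the clusters were seen, and cells that resolution 0.5 called chondrocyte-like were taken out of the fibroblast-like class. Differences from the study's cell types may come from these rebuilt names. For each cell type the UMIs of a library were added up and given as CPM, and log2 ratios (FGF8/BSA) were taken for genes with at least 100 UMIs, with exact Poisson, conditional binomial and binomial 95% intervals (numpy 2.4.6, scipy 1.17.1). Sex was called per cell from *Xist* and 4 Y-linked genes. All members were named, and of each list the 4 highest and 4 lowest ratios, with a few more members (*Fn1*, *Ilk*, *Parva*, *Itgb8* and *Col3a1* as the most abundant marker) chosen after their values were seen. Some genes that this rule takes in are not reported here. The members and lists were chosen with earlier results of these data known. The computations were tested on simulated data.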

Additional observations from a re-analysis of the deposited data

Results flagged for a closer look

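*Itga6* moved in opposite directions in parts of the fibroblast-like class. In the *Prg4* and *Scx*-led subcluster it was at 49.5 CPM in the FGF8 library and 24.7 CPM in the BSA library (log2 ratio 1.00), and in the *Lpl* and *Dlk1*-led subcluster at 61.0 and 98.1 CPM (-0.68). The log2 ratios differed by 1.68. In the largest subcluster at resolution 0.1, which was picked by size and need not hold the *Prg4* and *Scx*-led cells, the ratio was -0.10. In the finer *Lpl*, *Pi16* and *Dlk1*-led cluster it was -0.43, short of 1.5-fold. With 1 library per condition the difference was not tested.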

How the results depend on the processing

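The log2 ratio of *Itga5* in fibroblast-like cells stayed past 1.5-fold under the 14 alternatives that could move it, from 0.74 to 0.96. The lowest, with equal weight of subclusters, takes in the *Lars2*-led subcluster of few UMIs (1.47) and subclusters in which *Itga5* did not pass. *Itga4* kept its sign in 14 of 14 (-1.32 to -0.21) and stayed past 1.5-fold in 11, and *Itgb3* in 14 (-0.75 to -0.50) and 10. *Itga1* changed sign in 2 of 14 and *Itga2* in 3 of 13. The UMI minimums cannot move a gene's own ratio and are not counted here. The number of members higher past 1.5-fold went from 1 to 3 in male-called cells and to 2 with chondrocyte-like cells included, an alternative added after the data were seen. The number lower went from 2 to 1 with the stricter cell filter, in cells thinned to 2000 UMIs and in male-called cells, and to 0 with equal weight of cells or of subclusters, and it was 3 in female-called cells. Equal weight of subclusters takes in some with fewer than 100 UMIs of *Itga4* or *Itga2*. At 2-fold both were 0. The median over the members went from 0.11 to -0.17 in female-called cells, -0.0232 in male-called cells and 0.0198 with equal weight of subclusters, and stayed within its counting interval elsewhere. The median of other integrin subunits was -0.56 in female-called cells, and it turned positive with a minimum of 10 UMIs or none (0.13) and without the top 5% of cells by UMIs (0.0186). That of intracellular partners was 0.0402 with the stricter filter, 0.18 with median-of-ratios scaling (which moved every log2 ratio by 0.07), 0.16 with a minimum of 10 UMIs or none, and 0.0560 without the top 5% of cells by UMIs. That of ligands was -0.12 with the stricter filter, -0.0302 with equal weight of cells, -0.15 and -0.16 in cells thinned to 2000 and 5000 UMIs, -0.31 and -0.28 in female-called and male-called cells, -0.16 with median-of-ratios scaling and -0.14 without the top 5%. The share of cells with an *Itga5* UMI was 33.4% in FGF8 and 23.96% in BSA after thinning to 5000 UMIs, and 64.1% and 56.4% unthinned. In the largest fibroblast subcluster, *Itga5* was at 0.80 with all variable features, 0.50 at resolution 0.1 (not past 1.5-fold) and 0.83 at resolution 0.3, and *Itga6* at 0.64, -0.10 and 0.83. The largest subcluster was picked by size at each setting and need not hold the same cells. These values are thus no measure of how stable the *Prg4* and *Scx*-led subcluster is, and the cause of the sign change was not tested. No paired analysis was possible because each condition had 1 library. With 1 pool of animals per condition, counting intervals leave out the spread between animals and dissections.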
